A study of Mus musculus with 11 samples.

Results

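Inner phalangeal cells (IPhCs) are supporting cells (SCs) of the organ of Corti, the hearing epithelium on the floor of the cochlear duct. They surround the inner hair cells, the receptors that pass most sound information to the auditory nerve, and are known for taking up the glutamate released at the inner hair cell synapse. Their medial neighbours are the border cells and Kölliker's organ (KO), a transient epithelium that helps to build the tectorial membrane. Their lateral neighbours are the inner pillar cells (IPCs) and, beyond the tunnel of Corti, the Deiters' cells (DCs) that carry the outer hair cells.

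The IPhCs described here were 317 of the 14043 cells of the postnatal day 1 (P1) table and of 30634 cells in the whole series. They were chosen by transcript levels, as the cells with a deposited Matn4 value of at least 2.0, a Myo6 value under 1.5, a Ccer2 value under 2.0, an Npy value under 3.0 and an Oc90 value under 3.5. Matn4, which encodes matrilin 4 of the extracellular matrix, selected the cells, Myo6 and Ccer2 removed hair cells (HCs), Npy removed IPCs and Oc90 removed cells of the cochlear roof. No gene of the rule was set to separate IPhCs from border cells, so the members may include border cells. A deposited value is the natural log of 1 plus a gene's unique transcript counts (UMIs) per 10000 UMIs of the cell. The 4 P1 libraries held 98, 47, 56 and 116 IPhCs, which is 2.62%, 2.16%, 2.22% and 2.07% of their cells. The exact binomial 95% intervals of these shares, which cover counting error only, ran from 2.13 to 3.18% in replicate 1, 1.59 to 2.86% in replicate 2, 1.68 to 2.88% in replicate 3 and 1.72 to 2.48% in replicate 4, and all 4 overlapped.

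All libraries came from wild-type CD1 mice, and the postnatal ones pooled the cochlear duct floors of several animals of either sex, so p-values do not measure the spread between animals. There were 2 libraries from embryonic day 14 (E14), 3 from embryonic day 16 (E16), 4 from P1 and 2 from postnatal day 7 (P7), with no treatment and no mutant. Single cells were captured in droplets and their transcripts counted by UMI from the 3' end. P1 libraries held 2179 to 5598 cells with a median of 3832 to 5648 UMIs. Levels below are the mean over cells of UMIs per 1000000 UMIs of the cell (CPM) in each library, and errors are SD over libraries. A pair of P1 libraries shared between 5 and 27 cell barcodes. Scrublet, which scores cells as likely doublets, called 3 IPhCs in replicate 1, 2 in replicate 3 and none in replicates 2 and 4. It called 8 of 5598 cells in replicate 4, too few for the caller to have worked there.

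The P1 cells carried the genes by which IPhCs are known. Matn4, the gene of the rule, lies on chromosome 2 from 164389393 to 164405160 (mm10) and stood at 2022, 3283, 3244 and 2809 CPM in the 4 libraries against 6.07 to 10.8 CPM in the 12229 other non-hair cells. The members carried a median of 11 Matn4 UMIs, with a range of 2 to 61. Fabp7, a fatty acid binding protein of glia and of SCs next to the inner hair cells (chromosome 10 from 57784881 to 57788450), stood at 4662, 2764, 2023 and 491 CPM against 175, 39.96, 34.8 and 13.6 CPM. Every library of IPhCs was above every library of the other cells, but the level in replicate 4 was far below that in the other libraries, and replicate 4 was also the lowest among the other cells. Gjb2, a gap junction connexin (chromosome 14 from 57098600 to 57104702), varied little, with 3920.2, 4242, 4350.0 and 4778 CPM in IPhCs and 654, 677, 744 and 779 CPM in the rest. Matn4, Fabp7 and Gjb2 were named as markers with these data known, so their levels are a description. Slc1a3, the glutamate transporter of SCs and glia (chromosome 15 from 8634124 to 8710764), stood at 237, 308, 182 and 199.8 CPM against 68.2, 66.4, 72.1 and 87.3 CPM (log2 fold change 1.51, SE 0.15, adjusted p = 4.43e-10). S100a6, a calcium-binding protein gene on the list of IPhC and border cell markers, went the other way, at 34.3 ± 14.2 CPM against 84.4 ± 34.2 CPM (log2 fold change -1.07, SE 0.19, adjusted p = 5.66e-05), and did not pass when no filter on low values was set (adjusted p = 0.0596). Of the genes that the rule used to leave cells out, Myo6 averaged 13.1 ± 3.42 CPM in IPhCs, Ccer2 7.48 ± 7.10, Npy 7.43 ± 6.13 and Oc90 117 ± 57.9 CPM, which the rule itself kept low.

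The boundary of the population was a cut through a continuous Matn4 level. The 5 lowest members had Matn4 values from 2.03 to 2.05, and the 5 highest cells outside ran from 1.97 to 1.9998. In the 55 members with Matn4 between 2.0 and 2.5, Fabp7 averaged 1999 ± 1485 CPM, Gjb2 3995 ± 423 CPM and Fgfr3, a receptor of pillar cells and DCs, 9.15 ± 18.3 CPM. In the 87 cells with Matn4 between 1.5 and 2.0, just outside, Fabp7 averaged 679.6 ± 656 CPM, Gjb2 2251 ± 508 CPM and Fgfr3 77.7 ± 15.9 CPM. On these means the cells just outside were lower in both IPhC markers and higher in this lateral SC gene. Library levels of Fabp7 overlapped, at 208 to 3843 CPM in the 55 members and 109 to 1618 CPM just outside. Those of Gjb2 (3499 to 4439 and 1792 to 2941 CPM) and Fgfr3 (0 to 36.6 and 59.0 to 97.5 CPM) did not. The 55 members came as 25, 6, 4 and 20 cells of the 4 libraries, so the levels of replicates 2 and 3 rest on 6 and 4 cells. Within the members, Gjb2 averaged 4065 ± 262 CPM between 2.5 and 3.0, 4479 ± 401 CPM between 3.0 and 3.5 and 4675 ± 523 CPM above 3.5, bands of 91, 87 and 84 members in which no Fgfr3 UMI was seen. Median depth was 5631 UMIs in the lowest band of members and 4127 in the highest.

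**Figure D1:**
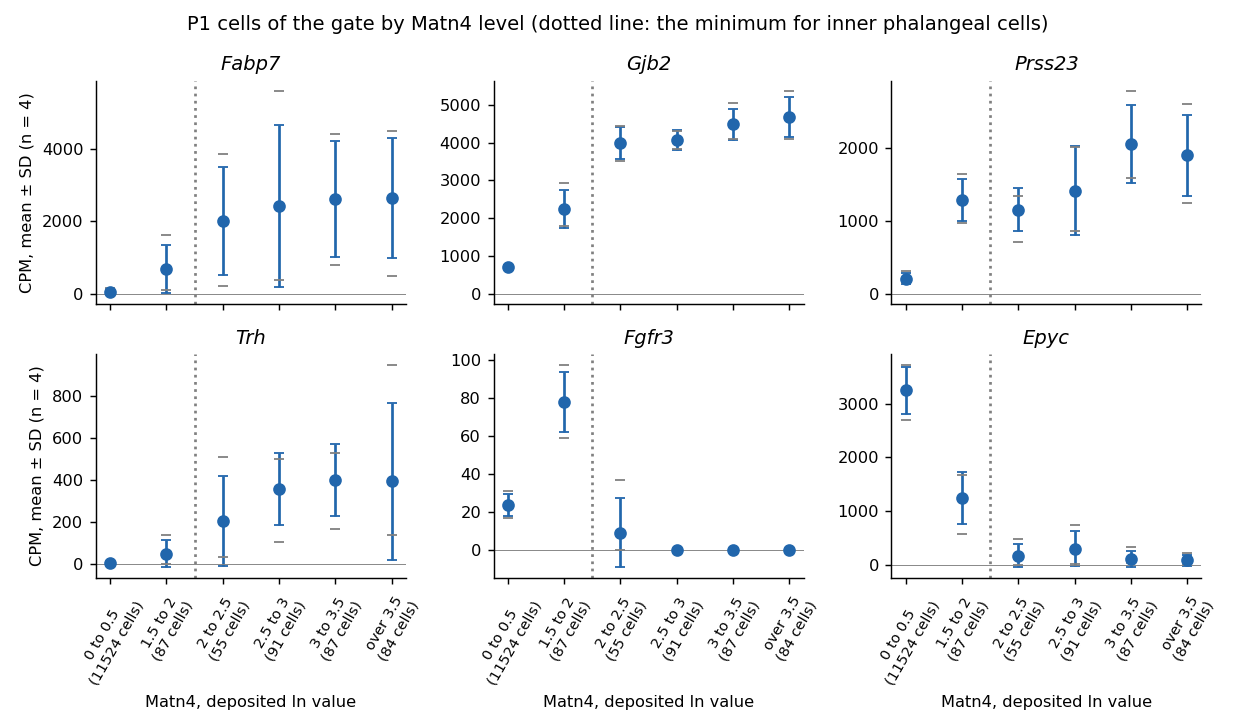
Mean CPM (points, with SD over 4 libraries; grey ticks, lowest and highest library) of 6 genes in P1 non-hair, Npy-low and Oc90-low cells, split by their deposited Matn4 value on the horizontal axis. Gjb2 stood at 2251 ± 508 CPM just left of the dotted limit and 3995 ± 423 CPM just right of it, and Fgfr3 at 77.7 ± 15.9 and 9.15 ± 18.3 CPM. The band just right of the limit held 25, 6, 4 and 20 cells of the 4 libraries.

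Markers of other cell types were summed over each list, in IPhCs and in other non-hair cells. The 10 DC markers summed to 5538 to 7597 CPM in IPhCs and 1372 to 2022 CPM in the rest, and the 8 IPC markers to 2893 to 3312 and 1041 to 1982 CPM. Npy, on the IPC list, was kept low in IPhCs by the rule. Of the 6 tested IPC markers, 2, Emid1 and Cryab, were higher and 2, Smagp and Igfbpl1, lower (median log2 fold change -0.48), with the call of Igfbpl1 lost when low genes were kept in (adjusted p = 0.126 from limma), and Cryab alone gave 2549 ± 155 CPM of the sum. The 6 medial KO markers summed to 2499 to 4388 and 5873 to 9733 CPM, the 7 interdental and inner sulcus markers to 207 to 356 and 1159 to 2563 CPM, the 8 Hensen's cell and lateral duct markers to 216 to 446 and 202 to 361 CPM and the 6 roof markers to 1503 to 2619 and 1756 to 2426 CPM, with Otx2 and Enpep at 0 in IPhCs. Sparcl1, described below, made up most of the roof sum in IPhCs, and Oc90, also on that list, was kept low by the rule. Of the 2 roof markers tested, Sparcl1 was higher (0.50 ± 0.08, SE) and Vmo1 lower (-2.69 ± 0.24). The Sparcl1 call was lost without the library block (adjusted p = 0.295 from limma). The part of these other cell types in the results was not tested. The 18 HC markers summed to 294 to 635 CPM in IPhCs and 166 to 314 CPM in other non-hair cells, with Gfi1 and Slc17a8 at 0. Smpx, described below, gave 227 ± 132 CPM of it in IPhCs, and Pou4f3, the defining HC transcription factor, stood at 1.11 ± 1.37 CPM against 1056 ± 196 CPM in the HC gate. The 8 Schwann and satellite glia markers summed to 101 to 160.2 CPM against 109 to 155 CPM, with Pmp22, Foxd3 and Cdh19 at 0, and the 7 macrophage and blood markers in the table to at most 2.60 CPM, with 6 of them at 0. The 7 mesenchyme markers summed to 519.6 to 695 CPM against 672 to 839 CPM, with Pou3f4, Tbx18 and Postn at 0 and Dcn, which the duct floor also expresses, at 606 ± 86.2 CPM.

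The first comparison set the IPhCs against all other P1 cells that were not HCs, library by library, with limma on log2(CPM + 10) and the library as a block. Of 8412 genes tested, 940 (11.2%) were higher in IPhCs and 807 (9.59%) lower at an adjusted p under 0.05. When low genes were kept in, the counts became 518 higher and 989 lower, and the balance between the directions turned. Trh, the precursor of thyrotropin-releasing hormone (chromosome 6 from 92242061 to 92244650), stood at 427, 225, 260.4 and 562 CPM in the 4 IPhC libraries and 4.24, 0, 0.513 and 1.66 CPM in the other cells (log2 fold change 4.95, SE 0.19, adjusted p = 2.48e-21). Ednrb, the B-type endothelin receptor (chromosome 14 from 103814625 to 103844402), stood at 279, 226, 189.5 and 165 CPM against 6.51, 1.18, 1.30 and 1.99 CPM (log2 fold change 4.13, SE 0.19, adjusted p = 7.83e-19). Fgf3, a secreted fibroblast growth factor of the otic epithelium (chromosome 7 from 144838083 to 144844436), stood at 103, 189, 417 and 279 CPM against 6.15, 3.78, 4.61 and 8.26 CPM (log2 fold change 3.88, SE 0.22, adjusted p = 2.23e-16). For each of these 3 genes the groups did not overlap, and the lowest IPhC library was over 10-fold above the highest library of other cells.

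The remaining genes named by rank covered several functions. Wfdc12, a secreted protein of the WAP protease inhibitor family, averaged 144 ± 50.4 CPM against 1.63 ± 1.66 CPM (log2 fold change 3.67 ± 0.21, SE). Lox, the lysyl oxidase that cross-links collagen and elastin, averaged 121 ± 35.8 CPM against 2.48 ± 0.701 CPM (3.35 ± 0.21). Sp5, a zinc-finger factor known as a direct Wnt target, held nearly the same level in every library, 136, 119.6, 113 and 108 CPM, against 2.67 to 5.18 CPM in the rest (3.22 ± 0.20). Plet1, a surface protein of epithelial progenitors, averaged 282 ± 106 CPM against 21.3 ± 10.1 CPM (3.20 ± 0.17), and Ramp3, a partner of calcitonin-type receptors, 365 ± 194 against 32.5 ± 11.2 CPM (3.05 ± 0.15). Prss23, a serine protease common to SCs, averaged 1681 ± 395 CPM against 223 ± 76.8 CPM (2.89 ± 0.11). Lockd, a long non-coding RNA that lies downstream of the cyclin-dependent kinase inhibitor gene Cdkn1b on the same strand, stood at 817, 522, 452 and 51.1 CPM against 105, 36.6, 33.2 and 6.72 CPM (2.91 ± 0.18), higher within each library, with replicate 4 lowest in both groups and the ranges of the groups overlapping. Adjusted p for these 7 genes ran from 1.82e-21 for Prss23 to 4.33e-15 for Lox. Smpx, a small muscle protein whose gene is linked to deafness and is on the HC list, stood at 399, 161, 252 and 94.9 CPM in IPhCs against 26.8, 5.96, 9.21 and 7.20 CPM (log2 fold change 3.32, SE 0.19, adjusted p = 2.26e-16), while the HC gate held 974 ± 355 CPM. The other 4 HC markers tested did not pass the test.

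**Figure D2:**
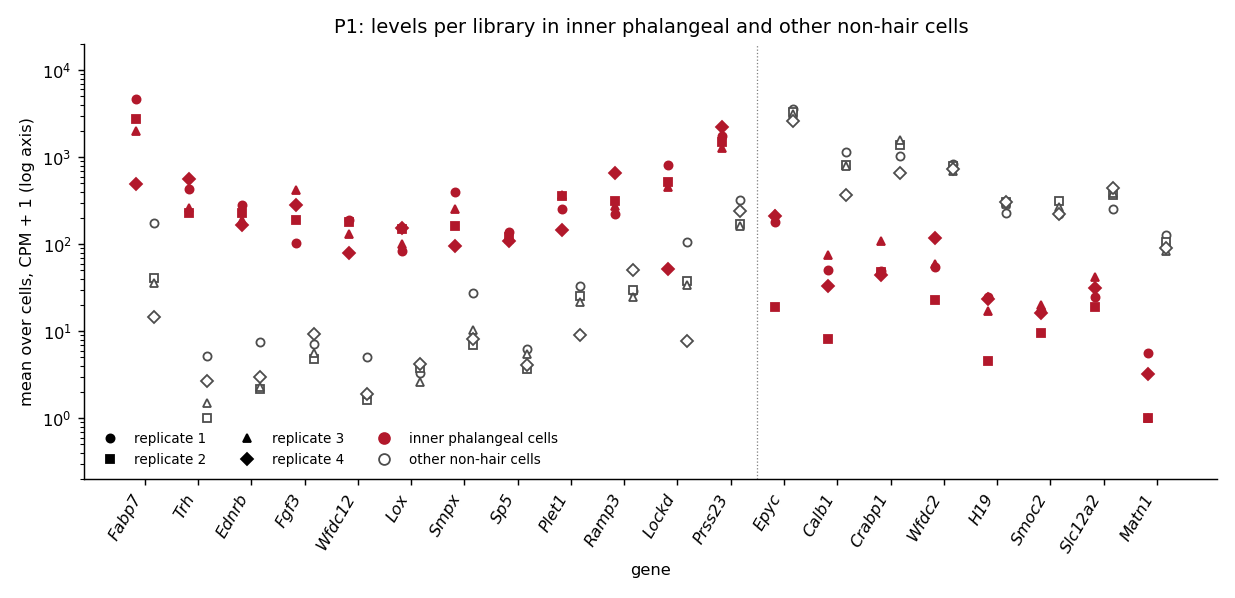
Levels (CPM + 1, log axis) of the 12 genes most raised and the 8 most reduced in IPhCs (red) against other non-hair cells (open grey), with 1 marker shape per P1 library. All 4 red points lie on 1 side of all 4 grey points for each gene except Lockd, whose groups overlap, and Fabp7 runs from 491 to 4662 CPM in IPhCs.

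Among the 8 largest differences downward, Epyc, the proteoglycan epiphycan, stood at 178, 17.8, 219 and 208 CPM in IPhCs and 3574, 3285, 3155 and 2612 CPM in the other cells (log2 fold change -4.63, SE 0.25, adjusted p = 5.67e-17). Calb1, the calcium buffer calbindin, stood at 49.01, 7.04, 74.3 and 32.5 CPM against 1157, 811, 790.0 and 370.0 CPM (log2 fold change -4.08, SE 0.21, adjusted p = 2.25e-17). Crabp1, which binds retinoic acid in the cytosol, averaged 61.5 ± 30.2 CPM against 1168 ± 411 CPM (log2 fold change -4.05, SE 0.13, adjusted p = 3.64e-23). No IPhC library reached the lowest library of other cells for any of the 3. Wfdc2, a WAP-domain protein, averaged 62.6 ± 39.5 against 766 ± 67.5 CPM and the imprinted RNA H19 16.5 ± 9.23 against 281 ± 36.2 CPM. The secreted matrix protein gene Smoc2 averaged 14.8 ± 4.42 against 258 ± 43.6 CPM, the cartilage matrilin Matn1 1.71 ± 2.20 against 100.4 ± 19.1 CPM, and Slc12a2, the sodium-potassium-chloride cotransporter, 28.1 ± 9.70 against 361 ± 79.2 CPM. Over the marker lists, 5 of 6 medial KO markers were lower and Tectb was higher (median log2 fold change -3.12, over all genes -0.02). Dcn, one of the 5, was not called without replicate 2 (adjusted p = 0.144 from limma), with pooled UMIs of the class (0.103), without the library block (0.409) or when low genes were kept in (0.0886). Of the 7 interdental and inner sulcus markers, 6 were lower and none higher. The other non-hair cells were not divided by type here, so these differences are against a mixture.

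Genes that SCs share were higher in IPhCs than in the rest. Of 13 tested, 9 were higher and 2, Fgfr3 and Hes1, lower (median 1.09). Anxa5, a calcium-dependent phospholipid binding protein, stood at 7564, 5322, 5162 and 1464 CPM against 952, 689.7, 629 and 238 CPM (log2 fold change 2.87, SE 0.09, adjusted p = 6.31e-24), again with replicate 4 lowest in both groups. Fgfr3 was nearly absent, with a total of 5 UMIs in 2 IPhCs of replicate 4 and none in the other libraries, against 29.9 ± 5.06 CPM in other cells (log2 fold change -1.81, SE 0.23, adjusted p = 8.73e-08). In the Notch pathway, by which hair cells and SCs signal to their neighbours, 7 of 18 tested genes were higher and 2 lower (median 0.18). The ligand Jag1 averaged 322 ± 51.5 CPM against 70.5 ± 15.6 CPM (2.05 ± 0.13, adjusted p = 1.09e-14). The glycosyltransferase Lfng, which modifies Notch receptors, averaged 285 ± 115 CPM against 61.5 ± 17.6 CPM (2.003 ± 0.14, adjusted p = 1.47e-13). The effector Hes5 stood at 604, 695, 211 and 1326 CPM against 168, 224, 143 and 369.6 CPM (log2 fold change 1.43, SE 0.14, adjusted p = 3.34e-10), higher in each library although the ranges of the groups overlapped. The effector Heyl averaged 96.5 ± 17.97 against 53.3 ± 34.95 CPM (0.88 ± 0.20, adjusted p = 8.18e-04). Without the library block, Hes5 and Heyl did not pass the test (adjusted p = 0.0888 and 0.160 from limma), and Heyl did not when low genes were kept in (adjusted p = 0.147).

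Wnt and FGF genes differed in both directions. Of 26 Wnt genes tested, 11 were higher and 4 lower (median 0.38). Lgr5, the R-spondin receptor that marks SCs with progenitor capacity (chromosome 10 from 115450311 to 115587780), stood at 100.1, 165, 154 and 75.9 CPM against 17.6, 20.4, 20.9 and 18.2 CPM (log2 fold change 2.13, SE 0.19, adjusted p = 2.81e-11). The receptor Fzd4 averaged 170.5 ± 62.4 against 28.8 ± 15.3 CPM (2.23 ± 0.16), and the secreted antagonist-family gene Dkk3 was lower, at 135 ± 114 against 391 ± 121 CPM (-1.69 ± 0.15). Of 12 FGF pathway genes, 5 were higher, among them the ligand Fgf3 and the phosphatase Dusp6, a feedback gene of the pathway, at 129 ± 37.6 against 26.95 ± 10.3 CPM (1.91 ± 0.19). The 3 lower ones included the receptors Fgfr3 and Fgfr1, the latter at 20.1 ± 18.7 against 166 ± 64.8 CPM (-2.73 ± 0.22). Fgf3 was higher and both of these receptors lower in every one of the 4 libraries.

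Glial and gap junction genes followed. In the list of glutamate uptake and glial genes, 13 of 22 tested were higher and 5 lower (median 0.46). After Fabp7 and Ednrb, the inhibitor of differentiation Id4 was raised, at 771 ± 165 against 258 ± 119 CPM (1.61 ± 0.12). Clu, the secreted chaperone clusterin, was lower in each library, at 2329, 3301, 3459.8 and 4213 CPM against 16498, 23140.0, 19576 and 23579 CPM (log2 fold change -2.65, SE 0.07, adjusted p = 4.64e-25). Of 13 connexin genes, 3 passed the filter on low values. Gjb6, the usual partner of Gjb2 and its neighbour on chromosome 14, stood at 688, 481, 752 and 1354 CPM against 94.3, 76.4, 110.1 and 199 CPM (log2 fold change 2.66, SE 0.11, adjusted p = 4.63e-20). Of 16 genes of purinergic signalling and of chloride and potassium transport, which drive the spontaneous activity of KO, 8 were higher and 2 lower (median 0.56). The ATP receptor P2ry2 averaged 40.7 ± 22.6 against 5.40 ± 1.85 CPM, the potassium channel Kcnj16 31.9 ± 18.3 against 2.74 ± 1.14 CPM and the ectonucleotidase Entpd2 27.1 ± 13.01 against 1.54 ± 0.402 CPM. Their log2 fold changes were 1.63 ± 0.23, 1.62 ± 0.24 and 1.61 ± 0.24 (SE), with adjusted p between 1.05e-06 and 1.87e-06. None of these 3 genes passed the test against the Fabp7 cells described below.

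Of 27 genes of the tectorial membrane and extracellular matrix tested, 15 were lower and 5 higher (median -0.66), and the prostaglandin synthase Ptgds averaged 30.7 ± 12.02 against 172 ± 66.04 CPM (-2.14 ± 0.17). Trophic factors and receptors split evenly, 8 higher and 8 lower of 20. The insulin-like growth factors Igf1 and Igf2 were lower, Igf1 at 30.2, 15.5, 31.03 and 31.8 CPM against 268, 323, 348 and 406 CPM (-3.23 ± 0.15) and Igf2 at 6.97 ± 4.14 against 97.7 ± 38.2 CPM (-2.62 ± 0.21). Their binding protein Igfbp2 was higher, at 152, 121, 133 and 620.3 CPM against 18.9, 20.98, 18.2 and 40.3 CPM (log2 fold change 2.64, SE 0.19, adjusted p = 1.41e-13), with replicate 4 far above the rest. The activin subunit Inhba was also higher, at 126 ± 58.1 against 16.03 ± 3.83 CPM (2.25 ± 0.21). Among 19 adhesion and junction genes, 7 were higher, led by the neural adhesion molecule Ncam1 (66.8 ± 32.8 against 4.12 ± 0.832 CPM), N-cadherin Cdh2 (201 ± 48.7 against 41.5 ± 5.22 CPM) and Nrcam (144 ± 22.4 against 38.3 ± 9.41 CPM), and 5 were lower, among them Cdh4 (28.01 ± 15.2 against 99.05 ± 35.8 CPM). All 4 of these passed the test with an adjusted p of 3.00e-08 or less.

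The cell cycle inhibitors moved apart. Cdkn1b, which keeps SCs out of division, averaged 145 ± 33.4 CPM against 28.9 ± 4.28 CPM (1.97 ± 0.17), and Cdkn1c averaged 181 ± 58.7 against 1186 ± 543 CPM (-2.58 ± 0.12). The cyclin Ccnd1 was higher, at 207, 222, 134 and 199 CPM against 30.8, 30.4, 25.2 and 29.6 CPM (log2 fold change 2.34, SE 0.16, adjusted p = 3.65e-14). In all, 3 of 9 genes of this list were higher and 2 lower. Of 10 genes of thyroid hormone and retinoic acid action, 5 were lower, among them the thyroid hormone receptor Thrb (20.7 ± 3.75 against 87.7 ± 18.4 CPM) and the retinoic acid binding protein Crabp2 (180.4 ± 68.1 against 428 ± 136 CPM), and 2 were higher. Of 23 regional transcription factors, 6 were higher and 7 lower. Tbx2, a factor of the inner hair cell region, averaged 66.7 ± 16.8 against 18.5 ± 4.09 CPM (1.41 ± 0.20), and Gata2 18.3 ± 18.02 against 101 ± 52.4 CPM (-2.13 ± 0.21). Zbtb20 (1.31 ± 0.12) and Klf5 (1.21 ± 0.14) were higher, Klf5 not without the library block (adjusted p = 0.224 from limma). Among 16 genes that respond to tissue dissociation, 1, Egr1, was higher and 3 lower, and none of these 4 passed without the block or when low genes were kept in.

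**Figure D3:**
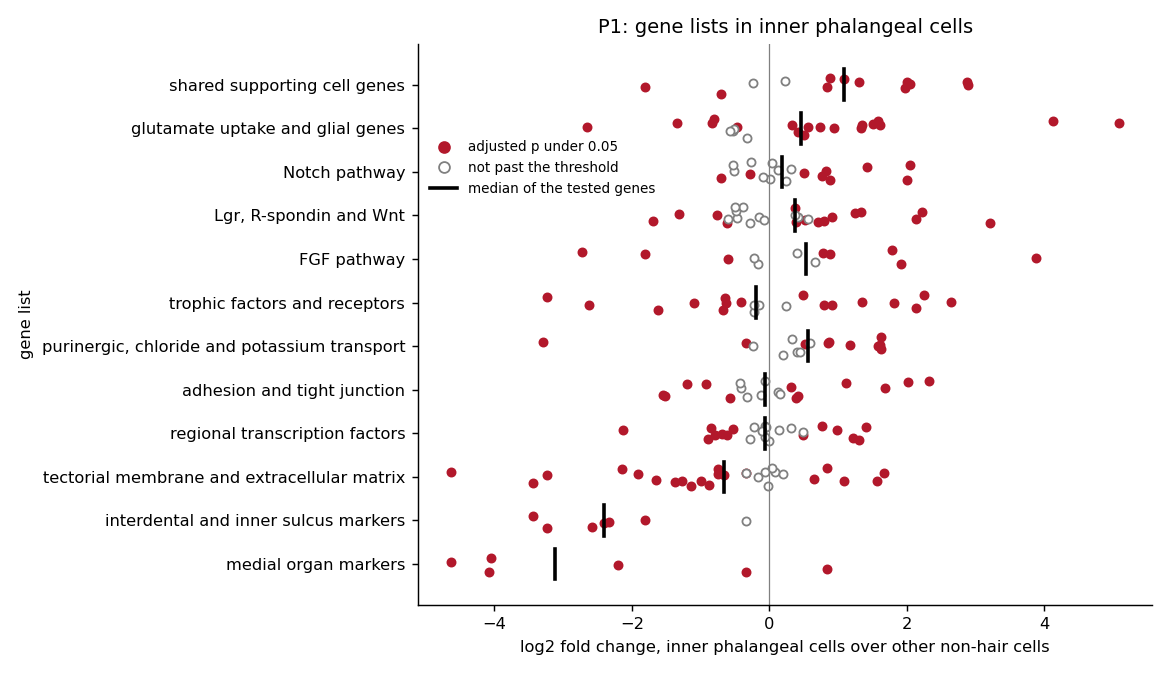
Log2 fold changes of P1 IPhCs over other non-hair cells (horizontal axis) for the tested genes of 12 lists, red where the adjusted p was under 0.05, with the median of each list as a bar. The SC list has its median at 1.09 and the medial KO markers at -3.12, and the signalling lists hold genes on both sides of 0.

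The IPhCs were next set against their lateral neighbours. IPCs were taken as the 171 P1 cells with Npy of at least 3.0, and DCs as the 266 cells with Serpine2 and Hes5 of at least 2.0. The latter also had Fst under 2.0 and Npy under 3.0, and both had Matn4 under 2.0 and lay outside the HC and roof limits. Both contrasts share the IPhC profiles with the first, so their values are given side by side. Against Npy cells, 783 of 8489 genes (9.22%) were higher and 727 (8.56%) lower. Against Serpine2 Hes5 cells, 643 of 8462 (7.6%) were higher and 599 (7.08%) lower. Fabp7 stood at 0 to 40.6 CPM in Npy cells and 0 to 12.4 CPM in Serpine2 Hes5 cells, below every IPhC library. Gjb6 averaged 7.94 ± 7.34 and 11.9 ± 19.3 CPM against 819 ± 375 CPM in IPhCs (log2 fold changes 5.53 ± 0.21 and 5.47 ± 0.22). Both connexins that IPhCs carry in abundance were thus near 0 or low in the lateral SCs, with Gjb2 at 234 ± 54.5 and 206 ± 82.2 CPM there.

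Gsn, Lum, Sparcl1 and Lgals1 were abundant in IPhCs and low in lateral SCs. Gsn, the actin-severing protein gelsolin, stood at 1018, 774, 871 and 1104 CPM in IPhCs and 818, 934, 836 and 937 CPM in other non-hair cells, a difference that did not pass the test (adjusted p = 0.617). In Npy cells it stood at 45.8, 3.46, 7.83 and 36.4 CPM (log2 fold change 5.07, SE 0.22, adjusted p = 1.25e-17) and in Serpine2 Hes5 cells at 23.1, 26.4, 11.7 and 73.3 CPM (log2 fold change 4.62, SE 0.21, adjusted p = 7.80e-18). Lum, the proteoglycan lumican, averaged 1575 ± 808 CPM in IPhCs, 1573 ± 679 CPM in the rest and 52.3 ± 41.7 and 107 ± 66.03 CPM in the lateral gates. Sparcl1, a matricellular protein gene, averaged 2148 ± 539 CPM in IPhCs and 65.02 ± 13.8 and 63.2 ± 58.8 CPM in the lateral gates. Lgals1, the secreted lectin galectin 1, averaged 1554 ± 634 CPM in IPhCs, 215 ± 98.3 CPM in the rest, and 41.8 ± 13.5 and 14.3 ± 6.998 CPM in the lateral gates (4.83 ± 0.19 and 5.92 ± 0.21). Every IPhC library was above every library of either lateral gate for these 4 genes. Of the extracellular matrix list, 9 of 25 tested genes were higher and 4 lower than in Npy cells, and 13 of 25 were higher and 1 lower than in Serpine2 Hes5 cells.

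The genes lower in IPhCs included known genes of pillar cells and DCs. Smagp, a small membrane glycoprotein gene, averaged 2.06 ± 3.40 CPM in IPhCs, 656 ± 62.6 CPM in Npy cells (log2 fold change -5.82, SE 0.23, adjusted p = 2.07e-18) and 450.5 ± 75.5 CPM in Serpine2 Hes5 cells (log2 fold change -5.28, SE 0.26, adjusted p = 1.05e-16). Fgfr3 averaged 417 ± 94.8 and 369.9 ± 54.7 CPM in those gates (-5.21 ± 0.26 and -5.06 ± 0.26). Igfbpl1, an insulin-like growth factor binding protein-like gene, averaged 6.48 ± 12.3 CPM in IPhCs, where 16 UMIs came from 1 cell of replicate 4, and 833 ± 122 and 337 ± 73.7 CPM in the lateral gates. Fam159b was lower in both contrasts (-5.31 ± 0.27 and -5.05 ± 0.25), the neurotrophin receptor Ngfr was among the lowest against Npy cells (-5.01 ± 0.27) and Mansc4 against Serpine2 Hes5 cells (-4.27 ± 0.28). All 7 tested IPC markers were lower than in Npy cells, and 7 of 8 tested DC markers lower than in Serpine2 Hes5 cells. Yet the DC list was raised in IPhCs against the rest of the floor, with 7 of 10 higher and 2 lower. S100a1, a calcium-binding protein, stood at 3601 ± 1182 CPM in IPhCs and 632 ± 284 CPM in the rest, Igfbp3 at 1351 ± 401 and 293 ± 47.3 CPM, and Emid1 at 460.5 ± 80.03 and 94.4 ± 7.77 CPM.

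Some genes raised against the whole floor were also carried by the lateral SCs. Lgr5 averaged 124 ± 42.6 CPM in IPhCs, 109 ± 20.9 CPM in Npy cells (log2 fold change 0.12 ± 0.23, adjusted p = 0.784) and 88.01 ± 41.4 CPM in Serpine2 Hes5 cells (0.47 ± 0.23, adjusted p = 0.202). Ramp3 averaged 434 ± 38.9 CPM in Npy cells (-0.36 ± 0.17, adjusted p = 0.146) and 276 ± 103 CPM in Serpine2 Hes5 cells (0.33 ± 0.16, adjusted p = 0.174). Prss23 was higher in IPhCs than in Npy cells (255 ± 141 CPM, 2.78 ± 0.15) and did not pass the test against Serpine2 Hes5 cells (1387 ± 153 CPM, 0.25 ± 0.11, adjusted p = 0.118). Of the 14 shared SC genes tested, 6 were higher and 5 lower than in Npy cells (median -0.27), and 2 higher and 6 lower than in Serpine2 Hes5 cells (median -0.29). Lfng was lower in IPhCs than in Serpine2 Hes5 cells (809 ± 188 CPM, -1.52 ± 0.15). Inhba was lower there too (-0.99 ± 0.21) and did not pass against Npy cells (-0.39 ± 0.21). Fzd4 (-0.07 ± 0.25 and -0.01 ± 0.20) and P2ry2 (0.33 ± 0.30 and -0.31 ± 0.28) passed against neither Npy nor Serpine2 Hes5 cells. Lockd, Id4 and Cdkn1b were higher than in Npy cells. Against Serpine2 Hes5 cells they did not pass (-0.12 ± 0.16, 0.08 ± 0.12 and 0.06 ± 0.19). In contrast, Trh (4.66 ± 0.24 and 5.07 ± 0.27), Ednrb (4.28 ± 0.28 and 3.70 ± 0.27), Lox (3.37 ± 0.31 and 2.89 ± 0.31), Wfdc12 (2.76 ± 0.29 and 2.69 ± 0.27) and Fgf3 (1.79 ± 0.24 and 1.45 ± 0.23) were higher in IPhCs than in both gates. Fgf3 and Lgr5 are known markers of DCs of row 3, and the Serpine2 Hes5 gate was not divided by row. Of the dissociation genes, 8 of 14 were higher in IPhCs than in Npy cells and 10 of 14 higher than in Serpine2 Hes5 cells. The part of tissue handling in these 2 contrasts was not tested. Without replicate 3, 464 genes were lower than in Npy cells.

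**Figure D4:**
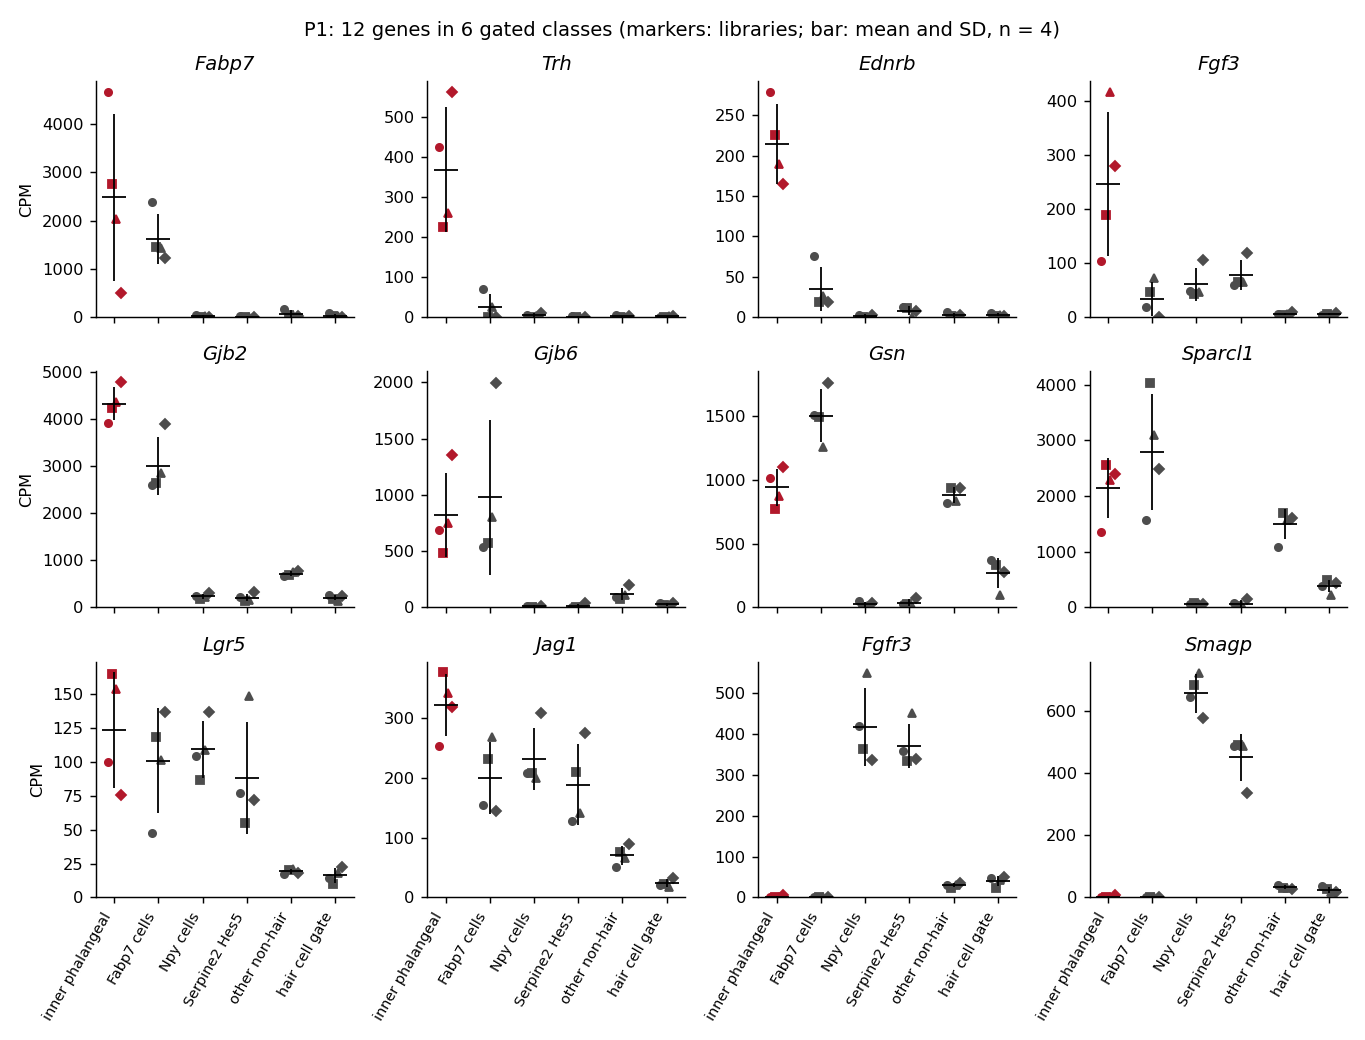
CPM of 12 genes in IPhCs and 5 other gated classes of P1 cells, with 1 marker per library and the mean and SD over 4 libraries as a cross and bar. Trh averages 368 ± 156 CPM in IPhCs and 23.7 ± 33.2 CPM in Fabp7 cells, Gsn and Sparcl1 are low in Npy and Serpine2 Hes5 cells, and Fgfr3 and Smagp show the reverse.

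Of these classes of P1 cells, the fewest genes were called against the Fabp7 cells, a gate of 255 P1 cells without a cell type label. They had Fabp7 of at least 2.0, Matn4, Fst and Pmch each under 2.0, and met the Npy, HC and roof limits set for the members. Here 150 of 8180 genes (1.83%) were higher in IPhCs and 107 (1.31%) lower. Both counts fell without the library block, with no filter on low values and with a pseudocount of 1 CPM, as given in the closing section. The 4 libraries contributed 181, 31, 29 and 14 Fabp7 cells, so replicate 1 holds most of them. Gjb6 averaged 977 ± 691 CPM in Fabp7 cells and did not pass the test (log2 fold change -0.13, SE 0.13, adjusted p = 0.727), and Gjb2 averaged 2999 ± 606 CPM. Trh was low there, at 70.3, 0, 24.3 and 0 CPM (log2 fold change 3.95, SE 0.36, adjusted p = 2.40e-08). Car14, a membrane carbonic anhydrase, averaged 88.9 ± 30.6 CPM in IPhCs and 4.41 ± 8.81 CPM in Fabp7 cells (log2 fold change 2.87, SE 0.39, adjusted p = 1.28e-05). Ccnd1 averaged 25.6 ± 27.6 CPM (2.86 ± 0.37), Fgf3 33.8 ± 31.2 CPM (2.77 ± 0.35) and Wfdc12 17.2 ± 13.2 CPM (2.61 ± 0.35) in Fabp7 cells. The genes lower in IPhCs were led by Dkk3, at 135 ± 114 against 569 ± 127 CPM (log2 fold change -2.24, SE 0.23, adjusted p = 1.52e-07), and the transcription factor Cebpd, at 1.54 ± 1.86 against 59.5 ± 66.7 CPM (log2 fold change -2.12, SE 0.48, adjusted p = 0.00817). Podn, Ccdc3 and Apobec1 followed, with log2 fold changes of -2.04 ± 0.33, -1.87 ± 0.40 and -1.87 ± 0.42. Of the SC list, 6 of 12 tested genes were higher in IPhCs and 1 lower, with Anxa5 at 1516 ± 686 CPM in Fabp7 cells (1.62 ± 0.09) and Lfng at 98.2 ± 33.3 CPM (1.43 ± 0.21). Of 16 genes of purinergic signalling and of chloride and potassium transport, 0 were higher and 1 was lower. P2ry2 (1.01 ± 0.40), Kcnj16 (0.74 ± 0.42) and Entpd2 (0.73 ± 0.40) did not pass the test (adjusted p = 0.228, 0.470 and 0.448 from limma). Of the Wnt list, 1 of 26 tested genes was higher and 2 lower. The Notch list had 3 of 17 higher and 0 lower, and the regional transcription factors 0 of 21 and 1. Lgr5 (0.29 ± 0.26), Fzd4 (0.51 ± 0.22) and Cdkn1b (0.72 ± 0.28) did not pass the test. Hes5 (0.006 ± 0.18), Dusp6 (0.05 ± 0.23), Tbx2 (0.33 ± 0.33) and Klf5 (-0.16 ± 0.21) did not either. Leaving out replicate 1, 2 or 3 lowered the 107 genes that were lower in IPhCs to 56, 55 or 51.

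The share of single IPhCs with a transcript was compared after thinning each cell to 1500 UMIs. No cell of any class was shallower. Gjb2 was detected in 97.8% (95% interval 95.5 to 99.1%) of 317 IPhCs, against 53.04% of other non-hair cells and 93.7% of Fabp7 cells. In the 1497 cells of the HC gate it was detected in 17.97%. Pou4f3 was detected in 59.3% of that gate, and whether the rest of it were HCs was not tested. Anxa5 was detected in 92.7% (95% interval 89.3 to 95.3%) and Prss23 in 86.1% (95% interval 81.8 to 89.7%), against 30.7% and 8.82% in the HC gate and 45.2% and 19.00% of other non-hair cells. Fabp7 was detected in 69.7% (95% interval 64.3 to 74.7%), from 39.7% in replicate 4 to 91.8% in replicate 1, with 1.74% in the HC gate. Trh was seen in 25.6% (95% interval 20.8 to 30.7%), Ednrb in 26.2% (95% interval 21.4 to 31.4%), Fgf3 in 24.6% (95% interval 19.96 to 29.7%) and Sp5 in 13.9% (95% interval 10.3 to 18.2%), against 0.267%, 0.668%, 0.468% and 0.401% in the HC gate. Other gated classes carried some of these transcripts too. Fgf3 was seen in 7.02% of Npy cells and 9.40% of Serpine2 Hes5 cells (30.99% and 19.6% unthinned), Sp5 in 4.09% of Npy cells and 3.92% of Fabp7 cells (14.04% and 13.3%), and Ednrb and Trh in 7.45% and 4.31% of Fabp7 cells (22.4% and 5.10%). Without thinning the IPhC shares were 34.1%, 51.7%, 45.7% and 39.1%, and those of Gjb2, Anxa5, Prss23 and Fabp7 were 99.05%, 98.4%, 96.2% and 82.97%. The intervals pool the cells of the 4 libraries and cover counting error only. By library, the thinned IPhC share ran from 14.3 to 35.7% for Fgf3, 19.8 to 35.7% for Ednrb and 19.15 to 30.6% for Trh. It ran from 10.6 to 16.3% for Sp5, 81.0 to 100% for Anxa5, 76.8 to 90.5% for Prss23 and 95.9 to 100% for Gjb2. Median depth was 5559 UMIs in IPhCs and 5697 in the HC gate. Trh was thus uneven among the members, with 38 of 98, 13 of 47, 17 of 56 and 40 of 116 cells of the 4 libraries carrying a UMI and up to 24 UMIs in 1 cell. Prox1, a lateral SC factor, was found in 0 of 317 thinned IPhCs, which allows a share of cells with a UMI of up to 0.946% (3 counts of the total; 0.316% had a UMI before thinning), against 20.7% of Serpine2 Hes5 cells and 2.004% of the HC gate.

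Because Fabp7 varied among members, the 206 IPhCs with a Fabp7 value of at least 2.0 were set against the 111 below it. Replicates 1 and 2 held 9 and 8 Fabp7-low IPhCs, under the minimum of 10 cells, so the contrast rests on replicates 3 and 4, with 1 residual degree of freedom. The variance was pooled over genes, so SE and adjusted p do not measure a gene's own spread between replicates 3 and 4. Of 8254 genes, 8 (0.0969%) were higher in Fabp7-high IPhCs and 7 (0.0848%) lower. Trh stood at 356 and 983 CPM in the Fabp7-high IPhCs of replicates 3 and 4 and at 0 and 365 CPM in the Fabp7-low ones (log2 fold change 3.30, SE 0.30, adjusted p = 7.56e-24). Chst8, a sulphotransferase, stood at 112 and 51.6 CPM against 0 and 14.7 CPM, Olfml3, a secreted olfactomedin-like protein, had a log2 fold change of 2.005 ± 0.31, Hes5 of 1.35 ± 0.23 and the imprinted RNA Meg3 of 1.21 ± 0.24. Lower in the Fabp7-high cells were Epyc, at 144 and 42.5 CPM against 426 and 285 CPM (log2 fold change -1.998, SE 0.38, adjusted p = 1.37e-04), and F3 (-1.69 ± 0.42), Dcn (-1.24 ± 0.22), Clu (-0.97 ± 0.13) and Mia (-0.86 ± 0.13), a cartilage-derived secreted protein gene, in the same direction. Ednrb (0.53 ± 0.31), Gjb2 (0.26 ± 0.12) and Fgf3 (0.07 ± 0.29) did not pass the test. No gene was called in either direction without the filter on low values or without the library block, and the counts at an unadjusted p under 0.05 were then 497 and 447. Without the block, the Fabp7-high IPhCs of replicates 1 and 2 also entered the contrast, so that setting changed the libraries compared as well as the pairing.

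The same rule applied to E16 picked 129 of 7961 cells, 22, 30 and 77 in the 3 libraries, from libraries that took no part in the choice at P1. Depth was lower, with a median of 2478 to 2750 UMIs per library. Of 8753 genes, 136 (1.55%) were higher than in other E16 non-hair cells and 121 (1.38%) lower. The variance was pooled over genes here, so SE and adjusted p do not measure a gene's own spread between these libraries. Of the dissociation genes, 5 of 14 were higher and 0 lower (median 0.61, over all genes -0.13), and the list summed to 4989 to 10870.0 CPM against 4004 to 5418 CPM. Their part in the result was not tested. Fabp7 stood at 847, 856 and 1077 CPM against 36.5, 90.6 and 12.7 CPM (log2 fold change 4.30, SE 0.28, adjusted p = 3.37e-50), and Gjb2 at 2253, 3325 and 3985 CPM against 473, 525 and 651 CPM (log2 fold change 2.49, SE 0.13, adjusted p = 4.13e-74). Both markers named at P1 were higher in all 3 libraries. Of the 12 genes most raised at P1, 10 passed the test upward at E16, and Lox (1.75 ± 0.64, adjusted p = 0.137) and Plet1 (1.28 ± 0.41, adjusted p = 0.0592) did not. Fgf3 stood at 296, 189 and 281 CPM against 7.74, 10.05 and 3.42 CPM (log2 fold change 3.95, SE 0.45, adjusted p = 1.79e-15), Ednrb at 268, 96.2 and 79.9 CPM (3.30 ± 0.54) and Trh at 49.98, 78.6 and 69.5 CPM (2.85 ± 0.64). Of the 8 most reduced at P1, 7 passed downward and Matn1 did not (-0.73 ± 0.61, adjusted p = 0.728).

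Over all genes, 121 of the 840 genes higher at P1 and tested at E16 (14.4%) were called higher at E16, which is 89.0% of the 136 called there. Of the 755 lower at P1, 95 (12.6%) were called lower, or 79.8% of the 119 called at E16 and tested at P1. For comparison, 11.2% of all genes tested at P1 were called higher there and 9.59% lower. Among genes called at P1, 1 of those higher was called lower at E16 and 4 of those lower were called higher. Called or not, 637 of the 840 had a positive log2 fold change at E16 and 636 of the 755 a negative one, with a median over all genes of -0.13. Without replicate 2 the E16 counts were 71 higher and 42 lower, and without replicate 3 they were 63 and 37. Slc1a3 (216, 72.1 and 161 CPM, 0.88 ± 0.37, adjusted p = 0.259) and S100a6 (adjusted p = 0.410) did not pass the test at E16. Levels at the 2 ages come from tables made separately and were not tested against each other: Gjb6 averaged 187 ± 102 CPM in the E16 cells and 819 ± 375 CPM at P1, and Trh 66.05 ± 14.6 and 368 ± 156 CPM.

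**Figure D5:**
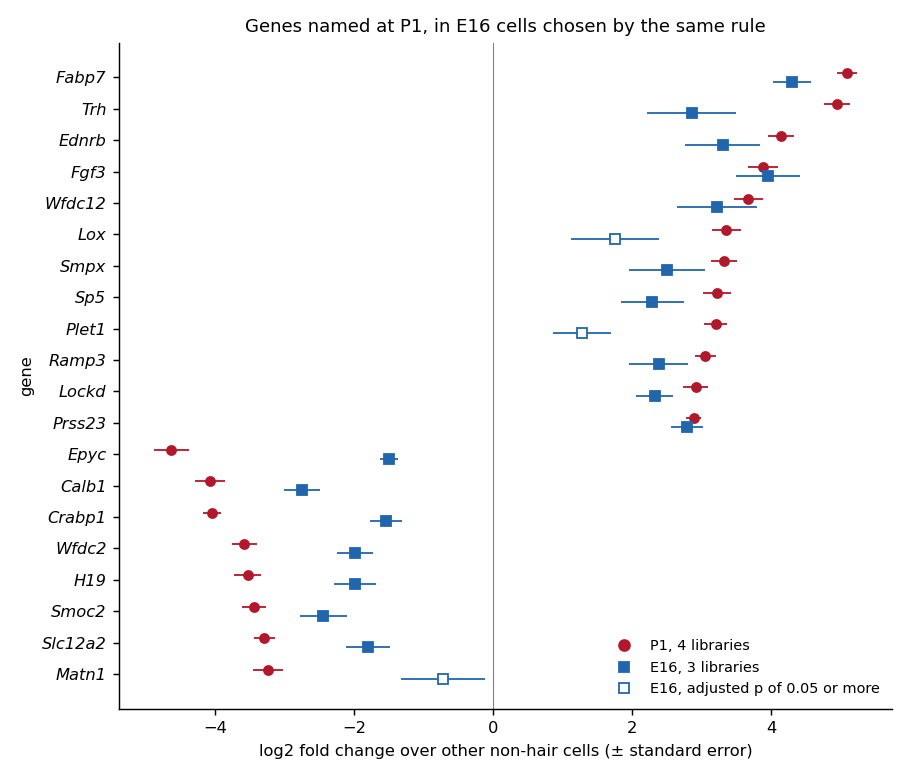
Log2 fold changes over other non-hair cells, with standard errors, of the 20 genes named by rank at P1 (red circles, 4 libraries) and of the same genes in E16 cells chosen by the same rule (blue squares, 3 libraries; open where the adjusted p was not under 0.05). All 20 have the same sign at both ages, and Lox, Plet1 and Matn1 are the open squares.

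At P7 the rule picked 123 of 3377 cells, 57 and 66 in the 2 libraries, but these did not carry the P1 pattern, so they are called rule cells here. Gjb2 stood at 1662 and 836 CPM in the rule cells against 1760.3 and 1299 CPM in other P7 non-hair cells (log2 fold change -0.36, SE 0.12, adjusted p = 0.0277), lower rather than higher. Slc1a3 averaged 24.8 ± 19.4 against 53.5 ± 1.19 CPM (-0.99 ± 0.36) and Gjb6 133 ± 70.8 against 209.7 ± 53.2 CPM (-0.69 ± 0.23). Fabp7 (539 and 1598 against 201 and 285 CPM, 1.91 ± 0.17) and Ednrb (381 and 537 against 15.4 and 28.9 CPM, 3.88 ± 0.26) were higher. Trh stood at 0 and Fgf3 at 4.04 and 0 CPM in the rule cells, and none of the 12 SC genes tested was higher while 8 were lower. Beside this, the Schwann and satellite glia markers summed to 2686 to 3701 CPM in the rule cells and 1081 to 2771 CPM in the rest, and the mesenchyme markers to 2647 to 3890.0 and 1664 to 2343 CPM. Their part in the result was not tested. Of 8566 genes, 735 (8.58%) were higher and 609 (7.11%) lower, with 2 libraries, 1 residual degree of freedom and a variance pooled over genes. When low genes were kept in, the counts became 578 higher and 1523 lower. Without the library block both counts were far lower, and the balance between the directions turned. At E14 the rule picked 6 and 8 cells in the 2 libraries, 14 of 5253, too few for a profile, and none of them had a Fabp7 value of 2.0 or more.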

How the data were processed

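Per the submitters' processing notes, reads were aligned to mm10 with Cell Ranger 2.1.1 and cells were handled in Seurat 2.0. The authors deposited 1 table per age of natural log values, ln(1 + x) with x the UMIs of a gene per 10000 in that cell, after their own filters on cells and genes, which limits what low-quality cells and rare genes can show here. Whole UMIs were recovered from these values within 0.02 UMI, and CPM per cell was averaged in each class and library with at least 10 cells. No minimum number of cells was set for the bands of Matn4 level. Depth was 11829392 to 23523802 UMIs per P1 library. Intervals and limits cover counting error only.

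The deposited unit is a log value, so no count model was used. Profiles were tested as log2(CPM + 10) with limma 3.58.1 (trend, library as a block) in R 4.3.3, two-sided, for genes averaging 10 CPM or more over the profiles. Adjusted p came from Benjamini and Hochberg's method across the whole table, with a threshold of 0.05. Limma weighs a gene's own variance against one pooled over genes. In the P1 contrasts between classes the pooled variance counted for 23.92 to 30.91 degrees of freedom, beside 3 of the gene's own. At E16, at P7 and in the Fabp7 split it took all the weight. There SE and p do not measure a gene's own spread between libraries. A fold change on this scale understates the change of low genes. Genes that define the gates were not tested. The test was run on simulated data for every comparison except the Fabp7 split and P7. The simulated class differences did not vary between libraries, so this run cannot show how the test handles such variation. Cells were chosen on transcripts of the same libraries that were tested. The library block pairs classes of the same library, whose deviations from the class means correlated at 0.43 to 0.72, against at most 0.27 between libraries. Ages were tested only within their own table.

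The members, gates and gene lists were chosen with earlier results of these data known. Named were the 12 largest rises and 8 largest falls that passed the test in the same direction in all 4 libraries, 5 of each in every other P1 comparison, up to 4 called genes per list with the largest change in the first comparison, the IPhC marker list and the genes of the gates. A gene of the marker list is not reported here. Predicted (Gm, Rik), mitochondrial, ribosomal and haemoglobin genes, Xist, Tsix, Malat1 and gate genes were left out of the largest rises and falls. Tectb, Hes1, Pou4f3 and Prox1 fall outside this rule and were chosen after their values were seen, as were the genes followed through the other classes and ages. Doublets were scored with Scrublet in scanpy 1.11.5 and kept. For shares of cells, each cell was thinned to 1500 UMIs. Gene positions are those of GENCODE M21. Alternatives were other pseudocounts and filters, pooled UMIs, no library block, stricter Matn4 limits, and leaving out scored doublets, cells of over 3000 genes or each library.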

Additional observations from a re-analysis of the deposited data

Results flagged for a closer look

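The member levels of 100 named genes were checked for a P1 library far from the other 3, by the gap to the nearest library over the whole range, against Dixon's 95% critical value. Chance gives about 5% of such gaps, and 11 genes had one. In replicate 4, Igfbp2 stood at 620.3 CPM (121 to 152 in the others), Dkk3 at 306 CPM (63.2 to 95.2), Igfbpl1 at 24.9 CPM (0 to 1.05, with 16 of 17 UMIs in 1 cell), Smagp at 7.09 CPM (0 to 1.14) and Fgfr3 at 6.31 CPM (0 in each of the others). In replicate 2, S100a6 stood at 55.4 CPM (24.6 to 29.8), Ccdc3 at 7.58 CPM (0 to 1.05, from 2 UMIs in 2 cells) and Igf1 at 15.5 CPM, below the 30.2 to 31.8 CPM of the others. In replicate 1, Mia stood at 6903 CPM (2465 to 3038) and Vmo1 at 11.7 CPM (0 to 1.14). In replicate 3, Crabp1 stood at 107 CPM (43.8 to 48.8, with 37 of 46 UMIs in 1 cell). Crabp1, Igf1, Igfbp2 and Fgfr3 were among the flagged genes whose difference from other non-hair cells kept its direction in each of the 4 libraries.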

How the results depend on the processing

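Of 79 genes named in the comparison with other non-hair cells, none changed direction where an alternative gave it a value. Genes that fell under the filter of 50 CPM, or under that of 10 CPM without replicate 4, had none. Without the library block that pairs the classes, 12 of them lost their call, and with no filter on low values 11 did. Leaving out replicate 2 ended the calls of Dcn, Zfp36 and Junb, replicate 3 that of Junb and replicate 4 those of Pmch and Junb. The cause of these changes was not tested.

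Without the block, 341 genes were higher and 266 lower than in other non-hair cells, 388 and 285 than in Npy cells, 306 and 254 than in Serpine2 Hes5 cells, 27 and 6 than in Fabp7 cells, 36 and 7 at E16, and 52 and 86 at P7, where the balance turned. With no filter, the counts were 518 higher and 989 lower than in other non-hair cells, which turned their balance, 569 and 447 for Npy cells, 404 and 335 for Serpine2 Hes5 cells, 41 and 18 for Fabp7 cells, 37 and 12 at E16, and 578 and 1523 at P7, where the balance also turned. With a filter of 50 CPM, under which fewer genes were tested, they were 610 and 406 for other non-hair cells, 526 and 468 for Npy cells, 422 and 385 for Serpine2 Hes5 cells, 63 and 35 at E16 and 495 and 394 at P7. With a pseudocount of 1 CPM they were 75 and 49 for Fabp7 cells, 66 and 21 at E16, and 21 higher in Fabp7-high members, where pooled UMIs gave 14. In that split limma called 0 genes either way with no filter or no block (497 and 447 genes at an unadjusted p under 0.05). The run with no block also took in the Fabp7-high members of replicates 1 and 2. With a Matn4 limit of 2.5 the mean share of members was 1.90%.

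Leaving out 1 library gave 716 to 880 higher and 626 to 705 lower than in other non-hair cells, 548 to 757 and 464 to 603 for Npy cells, 506 to 556 and 458 to 507 for Serpine2 Hes5 cells, 100 to 167 and 51 to 130 for Fabp7 cells, and 63 to 187 and 37 to 155 at E16. It gave a mean share of 2.15 to 2.33%. In the Fabp7 split, replicates 1 and 2 form no pair, so leaving them out (8 higher, 6 to 7 lower) tests nothing. Leaving out a P7 library, or replicate 3 or 4 in that split, leaves no residual degrees of freedom and was not run. At E14 the 6 and 8 cells were too few for a profile.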
